A study of Homo sapiens with 24 samples.

Results

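The integrated stress response was followed through 10 genes of PANC-1 cells: ATF4, DDIT3, ASNS, TRIB3, PPP1R15A, SESN2, CHAC1, PSAT1, PHGDH and VLDLR. They are the transcription factor ATF4, genes it is known to control and mRNAs whose translation is known to depend on upstream open reading frames (uORFs). They were chosen by name from the 54583 genes of the count table, with earlier results of these data known. Of these 10 genes, 9 were among the 12058 genes with a count above 0 in every library, which were the genes tested. VLDLR was not, and its counts are given instead. PANC-1 is an established human pancreatic ductal adenocarcinoma line. The cells received DMSO, CID661578 at 40 µM or cercosporamide at 5 µM for 6 h, with 4 replicates of each, and the labels describe both compounds as MNK2 inhibitors. The paper reports different actions: cercosporamide inhibited the kinase activity of MNK2 in vitro, and CID661578 did not. In the paper, CID661578 instead reduced the binding of MNK2 to the scaffold protein eIF4G. The paper also reports shared effects in PANC-1 cells. Both compounds, each at 40 µM, raised phosphorylation of the cap-binding protein eIF4E, and their translationally regulated mRNAs overlapped significantly. For each of the 12 cell samples, total cytosolic RNA and RNA associated with more than 3 ribosomes (polysome RNA) were sequenced, which gave 24 libraries. Each cell sample is called a plate here, although the methods do not say how many plates made up a sample. All plates carried the same unmodified line, DMSO being the vehicle. The study's methods call the replicates biological, and p-values measure the spread between these samples of a single line.

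When cells lack amino acids, accumulate misfolded protein or lack haem, one of the eIF2 kinases phosphorylates the translation initiation factor eIF2. Most mRNAs are then translated less, while a few, ATF4 first among them, are translated more because ribosomes pass their inhibitory uORFs. ATF4 binds amino acid response elements, often together with a C/EBP partner, and raises genes of amino acid synthesis and transport, of redox defence and of cell death, and PPP1R15A closes the loop by recruiting the phosphatase of eIF2.

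The upstream start codons of the 5′ leaders are shown because uORFs are known to control some of these mRNAs. Holding one is common and does not by itself set these genes apart. In the MANE Select transcripts of GENCODE v44 (GRCh38), ATF4 and DDIT3 each held 3 upstream ATG codons, TRIB3 and PPP1R15A each held 2, SESN2 held 1, and the leaders of ASNS, CHAC1, PSAT1, PHGDH and VLDLR held 0. Of 19061 such transcripts, 41.9% held an upstream ATG and 13.2% an upstream frame that runs past the main start, as 1 frame of ATF4 (59 codons) and 1 of DDIT3 (73 codons) does. In the lines here, 5′ to 3′, the ATG stands in capitals, and the third line of ATF4 and of DDIT3 shows the frame that overlaps the main start.
ATF4 upstream ATG 1: cgcccacagATGtagttttct
ATF4 upstream ATG 2: acggccaccATGgcgtattag
ATF4 upstream ATG 3: gcttaagccATGgcgcttctc
ATF4 main start: caccgcaacATGaccgaaatg
DDIT3 upstream ATG 1: gagcgtatcATGttaaagatg
DDIT3 upstream ATG 2: atgttaaagATGagcgggtgg
DDIT3 upstream ATG 3: tgaaagcagATGtgcttttcc
PPP1R15A upstream ATG 1: gttgatcttATGcaagacgct
PPP1R15A upstream ATG 2: gagggtgagATGaacgcgctg

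The first 2 windows of ATF4 lie in its 5′ UTR at chr22:39520577-39520597 and chr22:39520639-39520659 on the plus strand. Those of PPP1R15A lie in its 5′ UTR at chr19:48872446-48872466 and chr19:48872545-48872565, also on the plus strand. The first 2 windows of DDIT3 lie in its 5′ UTR at chr12:57520469-57520489 and chr12:57520460-57520480 on the minus strand, and they overlap each other. The third windows of ATF4 and DDIT3 each span an exon junction.

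The core of the C/EBP-ATF response element, TGATGNAA read on both strands, was looked for in RefSeq promoters (GRCh38.p14) from 250 bases before to 50 bases after the transcription start. It was found in windows of 2 of the 10 genes, ASNS and CHAC1, against 3.62% of 35116 promoters. The units differ, since some of the 10 genes had several promoters, and the other promoter of ASNS held no element. The TRIB3 promoters scanned, from chr20:381045 on, lie downstream of its first upstream ATG window (chr20:380796-380816). The promoter of that TRIB3 transcript was thus not scanned. The element stands in capitals, and for CHAC1 it lies on the antisense strand and is printed as the sense strand reads.
ASNS promoter: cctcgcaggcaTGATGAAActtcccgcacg
CHAC1 promoter: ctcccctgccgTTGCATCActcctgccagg

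These stretches lie at chr7:97872458-97872487 on the minus strand and chr15:40953251-40953280 on the plus strand, with the element starting at position -68 of ASNS and -209 of CHAC1. The 2 genes stood far apart in response, as their values show: CHAC1 was called in both RNA fractions with CID661578 and ASNS in neither.

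Read counts per library ran from 9268041 to 12184749, apart from the polysome library of cercosporamide replicate 4, with 1592459. KRT8, KRT18 and KRT19, keratins of ductal epithelium, and the mesenchymal gene VIM had at least 3289 counts in every library, KRT7, EPCAM and SOX9 were lower, and INS, PRSS1, AMY2A, PTPRC and COL1A2, which mark islet, acinar, immune and stromal cells, were at 0 in all 24 libraries. GCG, CELA3A and PECAM1 had at most 14 counts in any library.

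Replicate 3 stood apart in the stress genes themselves. In its DMSO total RNA the 10 genes were a median of 3.92 times (range 1.91 to 18.1) the mean of the other 3 replicates, and 9 of 10 were over 2-fold higher, against 5.26% of all tested genes. In the polysome RNA of the same DMSO plate the median was 7.21 times. Cercosporamide replicate 3 was high as well, with medians of 3.79 times in total RNA and 5.64 times in polysome RNA, while CID661578 replicate 3 was only 1.67 and 1.73 times the others. In total RNA, the DMSO level of replicate 3 lay within or above the range of the CID661578 libraries of replicates 1, 2 and 4 for every gene but VLDLR. The part that growth, handling or library making had in this was not tested. Values are therefore given by replicate, and counts of genes with and without replicate 3.

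**Figure D1:**
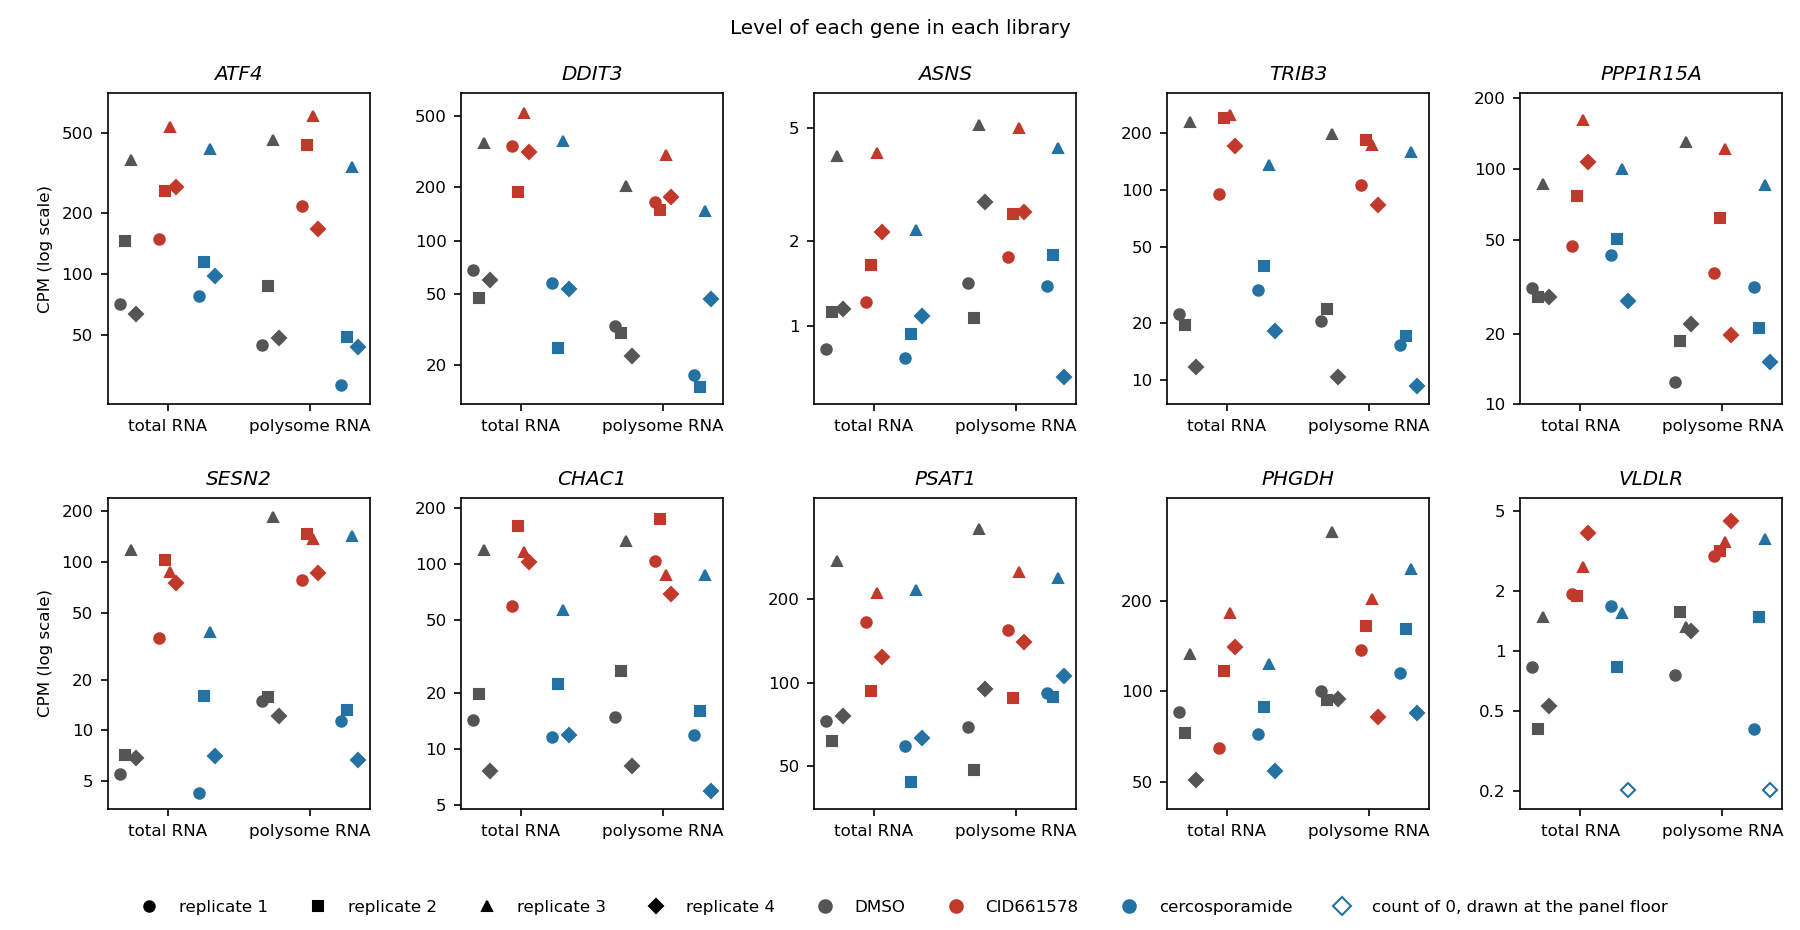
Level of the 10 genes in each of the 24 libraries, in CPM (log scale), for total RNA at the left and polysome RNA at the right of each panel, with colour for treatment and marker shape for replicate. The triangles of replicate 3 are high in DMSO (ATF4 at 367 CPM in total RNA against 63.2 to 146 CPM in the other replicates), and the red CID661578 points of replicates 1, 2 and 4 lie above the grey DMSO points of those replicates for 9 of 10 genes in total RNA.

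ATF4 (chr22:39519695-39522683, plus strand), the transcription factor at the head of the response, was higher with CID661578 in all 4 replicates of both fractions. Counts are scaled here to the normalized size of each library as CPM. In total RNA, ATF4 stood at 70.7, 146, 367 and 63.2 CPM in DMSO replicates 1 to 4, at 149, 256, 531 and 271 CPM with CID661578, and at 77.4, 114, 414 and 97.9 CPM with cercosporamide. In polysome RNA it stood at 44.5, 87.3, 458 and 48.4 CPM in DMSO, at 218, 437, 605 and 167 CPM with CID661578, and at 28.3, 48.7, 337 and 43.7 CPM with cercosporamide. The CID661578 and DMSO groups overlapped through DMSO replicate 3 alone, and without that replicate they did not overlap in either fraction. Fitted by the quasi-likelihood method of edgeR with the replicate as a block and p-values adjusted by Benjamini-Hochberg, the log2 change with CID661578 was 1.13 in total RNA (SE 0.229, adjusted p = 0.0408) and 1.79 in polysome RNA (SE 0.276, adjusted p = 0.000558). These are bulk samples, in which a change in how many cells express a gene and a change in RNA per cell cannot be told apart. Reads of the processed copies ATF4P3 and ATF4P4 came to 7.45% and 3.03% of those of ATF4, so that part of the ATF4 signal could have been counted there.

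DDIT3 (chr12:57516588-57521737, minus strand) encodes CHOP, a transcription factor tied to cell death under long stress. Its total RNA was 68.6, 47.5, 352 and 60.2 CPM in DMSO replicates 1 to 4, 339, 187, 518 and 315 CPM with CID661578, and 58.1, 25.0, 360 and 53.4 CPM with cercosporamide. Its polysome RNA was 33.1, 30.4, 203 and 22.6 CPM in DMSO, 165, 148, 301 and 176 CPM with CID661578, and 17.6, 15.1, 146 and 47.0 CPM with cercosporamide. DDIT3 was higher with CID661578 in 4 of 4 replicates of each fraction, least so in replicate 3. The fitted log2 changes were 1.90 in total RNA (SE 0.294, adjusted p = 0.00551) and 2.07 in polysome RNA (SE 0.318, adjusted p = 0.000558). DDIT3 shares 355 exon bases with MARS1 and 58 with MBD6, which lie on the other strand, and the library kit does not mark strand, so reads in the shared bases cannot be told apart.

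TRIB3 (chr20:362835-397559, plus strand) encodes a pseudokinase that is induced by ATF4 and CHOP and restrains ATF4. Its total RNA rose from 22.2, 19.5 and 11.7 CPM in DMSO replicates 1, 2 and 4 to 95.6, 241 and 171 CPM with CID661578, whereas replicate 3 went from 228 to 250 CPM. In polysome RNA those replicates went from 20.5, 23.5 and 10.3 CPM to 107, 184 and 83.4 CPM, and replicate 3 from 198 to 172 CPM. The fitted log2 changes of 2.48 (SE 0.434, adjusted p = 0.0135) and 2.24 (SE 0.377, adjusted p = 0.00149) therefore average 3 replicates with a large change and 1 without. Cercosporamide libraries held 29.9, 39.8, 135 and 18.1 CPM in total RNA and 15.2, 17.1, 158 and 9.27 CPM in polysome RNA, overlapping DMSO in both.

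PPP1R15A (chr19:48872212-48876059, plus strand) encodes GADD34, the subunit that brings protein phosphatase 1 to eIF2. In total RNA it stood at 31.1, 28.7, 86.5 and 28.5 CPM in DMSO and at 47.2, 76.6, 162 and 107 CPM with CID661578, higher in 4 of 4 replicates. In polysome RNA it stood at 12.5, 18.6, 130 and 22 CPM in DMSO and at 36.3, 61.8, 122 and 19.8 CPM with CID661578, higher in replicates 1 and 2 alone. The total RNA change passed the test (log2 1.24, SE 0.253, adjusted p = 0.0408), and the polysome change did not (log2 0.71, SE 0.29, adjusted p = 0.184). With cercosporamide the total RNA of PPP1R15A was 43.3, 50.3, 99.7 and 27.6 CPM and its polysome RNA 31.4, 21.2, 85.8 and 15.2 CPM.

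SESN2 (chr1:28259518-28282491, plus strand), a leucine sensor that holds back mTORC1, and CHAC1 (chr15:40952962-40956512, plus strand), an enzyme that breaks down glutathione, behaved like TRIB3. SESN2 total RNA was 5.50, 7.12, 117 and 6.80 CPM in DMSO, 35.4, 102, 86.9 and 75.2 CPM with CID661578, and 4.25, 15.9, 38.4 and 7.04 CPM with cercosporamide. Its polysome RNA was 15.0, 15.8, 185 and 12.2 CPM in DMSO, 78.4, 146, 137 and 85.5 CPM with CID661578, and 11.4, 13.2, 143 and 6.62 CPM with cercosporamide. In replicates 1, 2 and 4 every CID661578 value lay above every DMSO value, and in replicate 3 the CID661578 value was the lower in each fraction. The fitted log2 changes were 2.37 in total RNA (SE 0.492, adjusted p = 0.0476) and 2.23 in polysome RNA (SE 0.406, adjusted p = 0.00332).

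CHAC1 total RNA was 14.3, 19.9, 119 and 7.68 CPM in DMSO, 59.3, 159, 116 and 102 CPM with CID661578, and 11.7, 22.4, 56.2 and 12.0 CPM with cercosporamide. Its polysome RNA was 15.0, 26.3, 132 and 8.10 CPM in DMSO, 103, 174, 87.1 and 68.9 CPM with CID661578, and 12.0, 16.1, 86.5 and 5.96 CPM with cercosporamide. Again replicate 3 did not follow the others, being slightly lower with CID661578 in total RNA and lower in polysome RNA. The fitted log2 changes were 2.21 (SE 0.404, adjusted p = 0.0185) and 2.24 (SE 0.411, adjusted p = 0.0036).

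The 3 enzymes of amino acid synthesis had the smallest fitted changes with CID661578 among the tested genes, in both fractions. Differences between genes were not tested. PHGDH (chr1:119648411-119744218, plus strand) opens the serine pathway from glycolysis, PSAT1 (chr9:78297125-78330093, plus strand) performs its next step, and ASNS (chr7:97851677-97872542, minus strand) makes asparagine. PSAT1 total RNA was 73.0, 61.8, 274 and 76.0 CPM in DMSO, 165, 93.2, 210 and 124 CPM with CID661578, and 59.3, 43.7, 217 and 63.2 CPM with cercosporamide. PHGDH total RNA was 85.3, 72.5, 133 and 50.7 CPM in DMSO, 64.8, 117, 182 and 141 CPM with CID661578, and 72.2, 88.9, 123 and 54.4 CPM with cercosporamide. PSAT1 was higher with CID661578 in replicates 1, 2 and 4, and PHGDH in replicates 2, 3 and 4, but neither gene passed the test in total RNA (log2 0.56, 95% confidence interval 0.08 to 1.04, and log2 0.58, interval 0.07 to 1.10, adjusted p = 0.629 for each).

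In polysome RNA, PSAT1 was 69.2, 48.5, 358 and 95 CPM in DMSO, 155, 88.4, 250 and 140 CPM with CID661578, and 92.0, 89.1, 238 and 106 CPM with cercosporamide. PHGDH was 100, 93.6, 340 and 94.7 CPM in DMSO, 137, 165, 204 and 82.3 CPM with CID661578, and 115, 161, 256 and 84.7 CPM with cercosporamide. The polysome change with CID661578 was 0.49 for PSAT1 (interval 0.02 to 0.96) and 0.06 for PHGDH (interval -0.37 to 0.50), with neither past the test. ASNS shares 2415 exon bases with another GENCODE gene on the same strand that was not counted separately. What this does to the ASNS count was not tested. ASNS was scarce, at 0.83 to 3.99 CPM in the DMSO total libraries and 1.22 to 4.09 CPM with CID661578. Its changes of 0.47 in total RNA (interval -0.37 to 1.31) and 0.27 in polysome RNA (interval -0.41 to 0.96) leave room for a rise of over 2-fold as well as for a fall in total RNA.

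VLDLR (chr9:2621182-2660056, plus strand), a lipoprotein receptor raised by ATF4 in several cell types, was the rarest of the 10. It had 8, 4, 17 and 6 counts in DMSO total RNA, 22, 17, 28 and 36 with CID661578, and 13, 8, 12 and 0 with cercosporamide. In polysome RNA it had 8, 19, 14 and 16 counts in DMSO, 34, 39, 43 and 51 with CID661578, and 5, 18, 40 and 0 with cercosporamide. It was the only one of the 10 genes with every CID661578 library above every DMSO library, replicate 3 included, in total RNA (1.87 to 3.88 against 0.407 to 1.47 CPM) and in polysome RNA (2.98 to 4.46 against 0.755 to 1.56 CPM). Among the tested genes, 0.713% were so separated in total RNA and 3.83% in polysome RNA. The counts of 0 allow up to 0.297 CPM in the total and 1.99 CPM in the polysome library of cercosporamide replicate 4 (3 counts each, counting error only). With no filter on low counts the fitted changes with CID661578 were 1.81 in total RNA (SE 0.547, adjusted p = 0.127) and 1.55 in polysome RNA (SE 0.382, adjusted p = 0.00545). With edgeR's filterByExpr they were 1.80 (adjusted p = 0.535) and 1.57 (adjusted p = 0.0713), so the total RNA call depended on the filter. VLDLR shares 260 exon bases with VLDLR-AS1 on the other strand, whose reads cannot be told apart there.

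Compared per kilobase of annotated exon, DMSO total RNA held most of DDIT3 (mean 101 ± 113 CPM per kb, SD, n = 4), ATF4 (62.0 ± 54.4) and PSAT1 (54.9 ± 46.2), and least of ASNS (0.362 ± 0.303) and VLDLR (0.0491 ± 0.0289). TRIB3, CHAC1, PPP1R15A, SESN2 and PHGDH lay between 21.3 and 9.29 CPM per kb, in that order. The length is that of all annotated exons merged, which can exceed the mRNA present, and the order depends on it. PHGDH (9187 bases) had a mean of 85.3 CPM before this division, above TRIB3 (3291 bases) at 70.2 CPM. SDs ran from well below the mean, as for PHGDH (9.29 ± 3.78), to above it, as for SESN2 (9.86 ± 16). Replicate 3 held the highest DMSO value of each gene. Among neighbours in the order, the values of the 4 replicates did not overlap for PHGDH and ASNS, nor for ASNS and VLDLR, and did overlap for all others, although PSAT1 was above TRIB3 within each of the 4 replicates.

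Counted together, 6 of the 9 tested genes were called higher in total RNA with CID661578 (ATF4, DDIT3, TRIB3, PPP1R15A, SESN2 and CHAC1) and 0 lower, a call being an adjusted p under 0.15 and a change over 1.2-fold. Of all 12058 tested genes, 0.315% (38 genes) were called higher and 0.133% lower in that comparison, so that these 6 made up 15.8% of the genes called higher. The median log2 change of the 9 was 1.24, against -0.01 over all tested genes. In polysome RNA, 5 of 9 were called higher (ATF4, DDIT3, TRIB3, SESN2 and CHAC1) against 6.16% of all tested genes, with a median log2 change of 1.79 against -0.01.

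With replicate 3 kept, these counts rest on the replicate block, and in total RNA they also vary with the replicate left out. Fitted without the replicate block, 0 of 9 genes were called in either fraction: ATF4 then changed by 0.90 in total RNA (SE 0.555) and 1.16 in polysome RNA (SE 0.761). The share of all tested genes called without the block is not given here. Counts of 0 without the block, here and below, can therefore not be read as particular to these genes. With neither the block nor replicate 3, an alternative chosen after the data were seen, 4 of 9 were called in total RNA (DDIT3, TRIB3, SESN2 and CHAC1) and 5 in polysome RNA. With the block, the total RNA count was 4 without replicate 1, 3 without replicate 2, 6 without replicate 3 and 1 without replicate 4, and the polysome count was 5 or 6 throughout. By replicate, the median log2 change of the 10 genes with CID661578 was 1.17, 1.69, 0.29 and 2.24 in total RNA and 2.1, 2.0, -0.15 and 1.79 in polysome RNA. Leaving out replicate 3, also after the data were seen, 9 of 10 genes no longer overlapped DMSO in total RNA (all but PHGDH, against 3.09% of tested genes) and 6 of 10 in polysome RNA (against 7.51%).

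**Figure D2:**
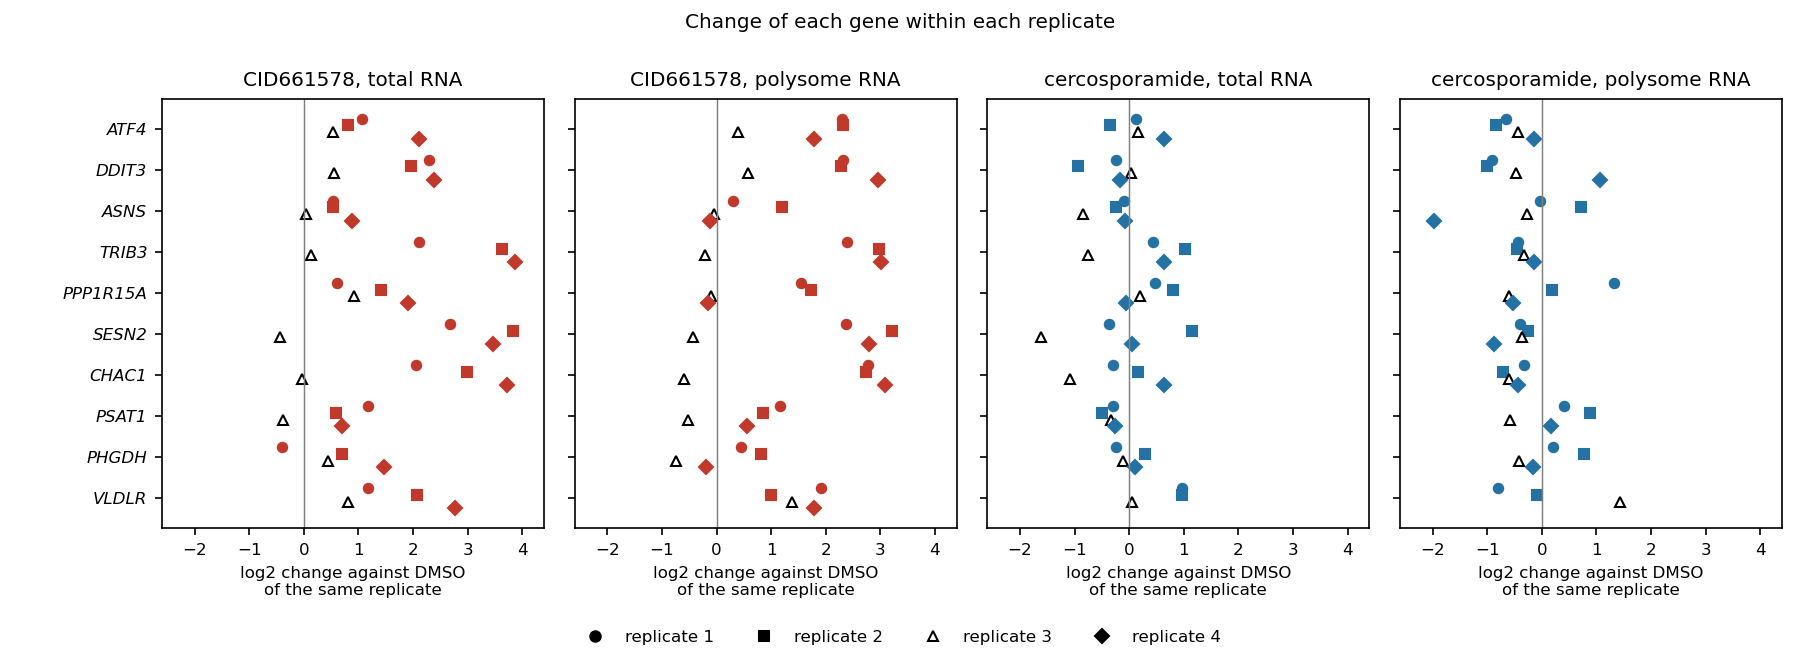
Log2 change of each gene against the DMSO library of the same replicate, for CID661578 (left panels) and cercosporamide (right panels) in total and polysome RNA, 1 point per replicate, with replicate 3 as open triangles. With CID661578 the triangles sit near 0 (median 0.29 in total and -0.15 in polysome RNA) to the left of most other points, whereas cercosporamide points scatter around 0; VLDLR in cercosporamide replicate 4, with a count of 0, is not drawn.

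Cercosporamide did not raise these mRNAs in the same way. With cercosporamide, 0 of 9 genes were called in total RNA, where 0.381% of all tested genes were called in either direction, and 0 of 9 in polysome RNA, where 32.2% were. At an unadjusted p under 0.05 the count was also 0 of 9 in both fractions. DESeq2 called 0 of 9 in each fraction too. In polysome RNA, leaving out replicate 3 gave 2 called lower (ATF4, -0.61, adjusted p = 0.113, and CHAC1, -0.52, adjusted p = 0.138) and leaving out replicate 4 gave 1 called lower (DDIT3, -0.74, adjusted p = 0.0787). The fitted changes ran from -0.42 (SESN2, interval -1.41 to 0.57) to 0.38 (PPP1R15A, interval -0.14 to 0.91) in total RNA and from -0.51 (ATF4, interval -1.08 to 0.05) to 0.18 (PSAT1, interval -0.29 to 0.65) in polysome RNA. ATF4 polysome RNA was lower with cercosporamide in 4 of 4 replicates, by log2 changes of -0.65, -0.84, -0.44 and -0.15.

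**Figure D3:**
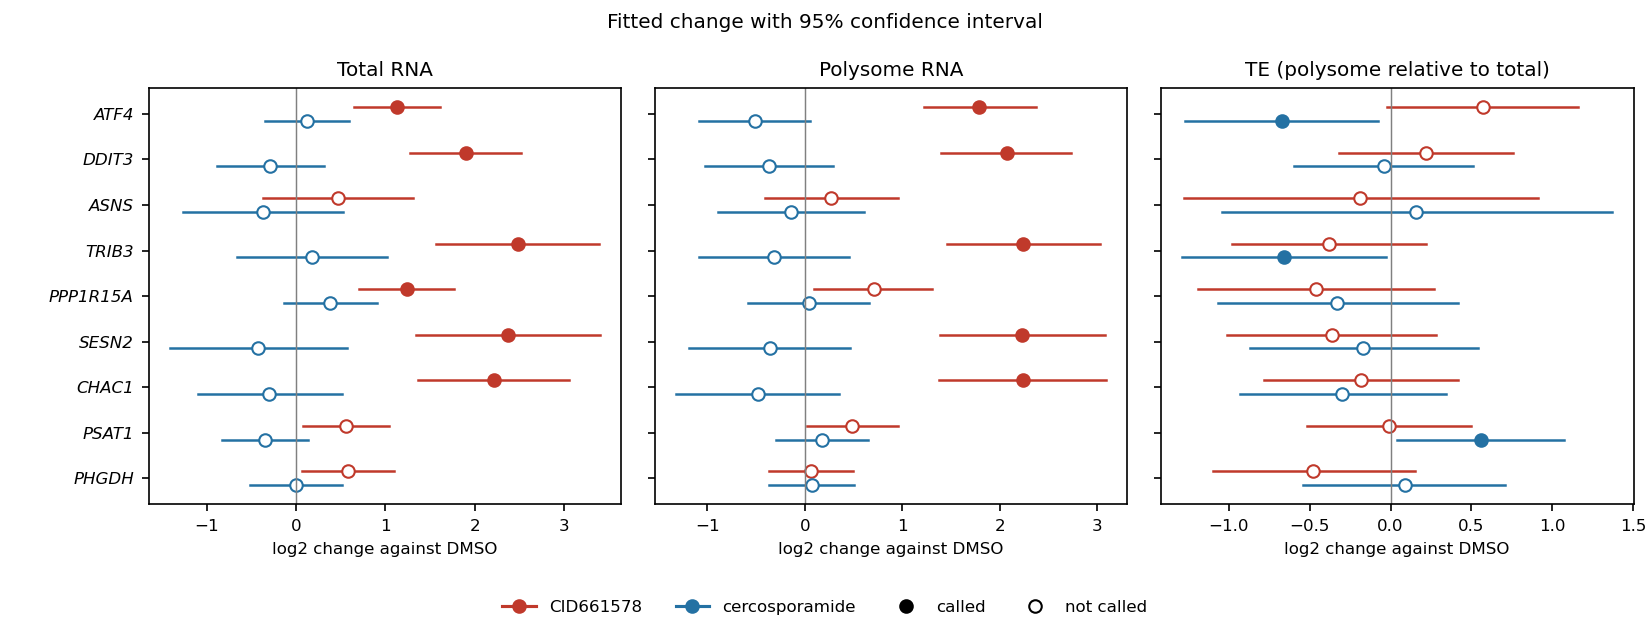
Fitted log2 change against DMSO with its 95% confidence interval for the 9 tested genes, in total RNA, in polysome RNA and in TE (polysome relative to total), with filled points for genes called. CID661578 intervals of ATF4, DDIT3, TRIB3, SESN2 and CHAC1 lie above 0 with filled points in the first 2 panels. Intervals of PPP1R15A (filled in total RNA only) and PSAT1 (open in both) lie above 0 there too. The interval of PHGDH does so in total RNA, with an open point. In the TE panel the filled points are those of cercosporamide for ATF4 (-0.67), TRIB3 (-0.66) and PSAT1 (0.56).

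Set against each other, at doses that differ (40 and 5 µM), CID661578 was higher than cercosporamide for 5 of 9 genes in total RNA (background 0.323% called higher) and the same 5 in polysome RNA (background 9.47%). These were ATF4, DDIT3, TRIB3, SESN2 and CHAC1. In total RNA the differences ran from log2 1.01 for ATF4 (SE 0.227, adjusted p = 0.0974) to 2.79 for SESN2 (SE 0.473, adjusted p = 0.0102). In polysome RNA they ran from 2.30 for ATF4 (SE 0.287, adjusted p = 8.36e-05) to 2.72 for CHAC1 (SE 0.432, adjusted p = 0.00073). PSAT1 (0.91, adjusted p = 0.163) and PPP1R15A (0.86, adjusted p = 0.259) missed the threshold in total RNA. Without the replicate block 0 of 9 differences were called in either fraction, and with neither block nor replicate 3 there were 5 in each. The total RNA count was 2 without replicate 1, and 3 both without replicate 4 and without the cercosporamide libraries of replicate 4. The comparisons with DMSO share their DMSO libraries, and so are not independent of each other.

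The change in polysome RNA relative to the change in total RNA of the same plate is called TE here. With CID661578, 0 of 9 genes were called in TE (background 0.207% in either direction), 0 at an unadjusted p under 0.05, and 0 by DESeq2. ATF4 had the largest estimate, 0.57 (95% confidence interval -0.02 to 1.16, adjusted p = 0.568). It was split by replicate: TE of ATF4 changed by 1.21 and 1.52 in replicates 1 and 2, and by -0.13 and -0.31 in replicates 3 and 4. The log2 ratio of polysome to total ATF4 RNA was -0.67, -0.75, 0.32 and -0.39 in DMSO, 0.55, 0.77, 0.19 and -0.70 with CID661578, and -1.45, -1.23, -0.30 and -1.16 with cercosporamide. The one DMSO plate with high ATF4 mRNA, replicate 3, was also the one DMSO plate in which this ratio was above 0. The other estimates ran from -0.48 (PHGDH, interval -1.10 to 0.15) to 0.22 (DDIT3, interval -0.32 to 0.76).

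With cercosporamide, 3 of 9 genes were called in TE: ATF4 lower (-0.67, SE 0.289, adjusted p = 0.116), TRIB3 lower (-0.66, SE 0.305, adjusted p = 0.147) and PSAT1 higher (0.56, SE 0.251, adjusted p = 0.135). That share was close to the background of 28.4%. ATF4 TE fell in 4 of 4 replicates, while TRIB3 and PSAT1 each moved so in 3 of 4. The calls were fragile: 0 of 9 remained after correction for the trend with GC content, or without replicate 1, 2 or 4, 2 by DESeq2, and 1 without the shallow cercosporamide replicate 4. TE of ATF4 was higher with CID661578 than with cercosporamide, at their different doses, by log2 1.24 (SE 0.29, adjusted p = 0.0157), 1 of 9 genes called against a background of 7.93% called higher. That difference was 0.98 without replicate 2 (adjusted p = 0.165) and 0.85 with neither the replicate block nor plate terms (adjusted p = 0.828), and was called under every other alternative run for it. A second gene was called in that difference without replicate 1 (PHGDH, -0.88, adjusted p = 0.148) and without replicate 3 (PSAT1, -0.81, adjusted p = 0.0891).

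**Figure D4:**
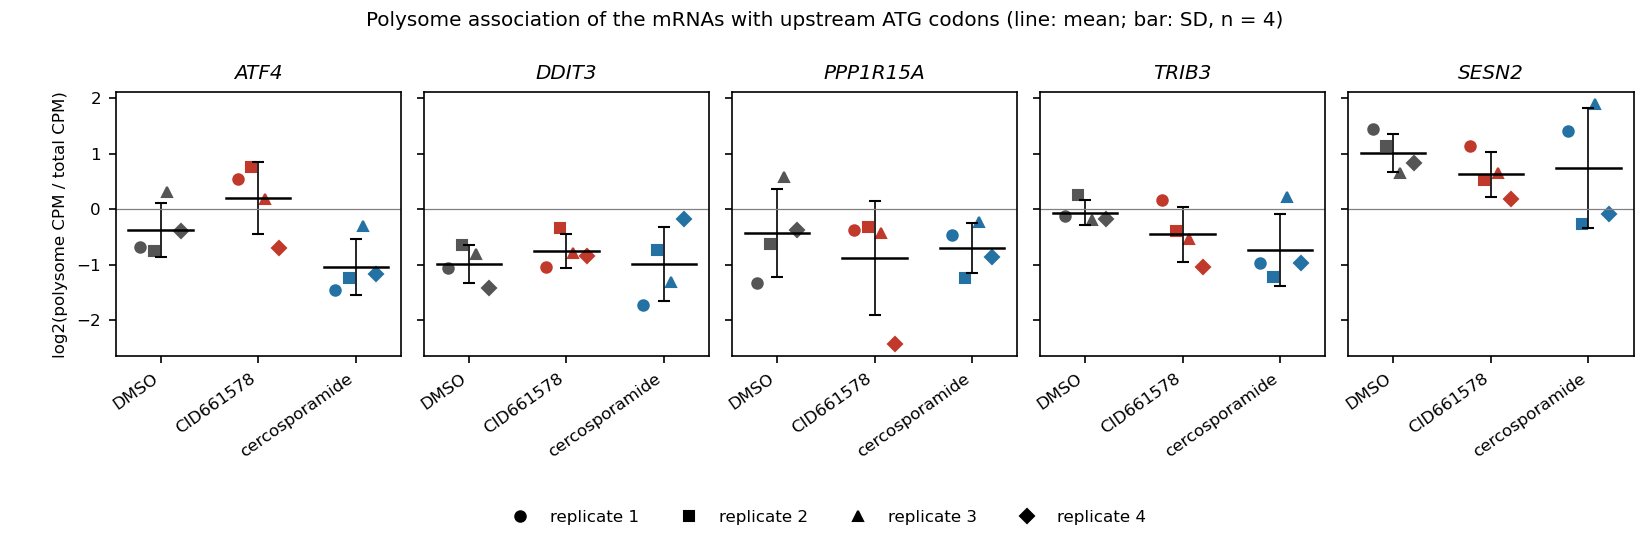
Log2 ratio of polysome to total CPM on each plate for the 5 mRNAs with upstream ATG codons, by treatment, with the mean and SD of 4 replicates. ATF4 plates of cercosporamide lie from -1.45 to -0.30 and its CID661578 plates from -0.70 to 0.77, and DDIT3 lies below 0 on every plate of every treatment.

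In DMSO cells the mRNAs differed in polysome RNA relative to total RNA. All libraries were scaled to a common size, so this ratio places a gene against the other genes. It does not give the share of an mRNA that was on polysomes. Relative to other genes, DDIT3 was depleted in polysome RNA (log2 polysome over total -0.97, SE 0.178, adjusted p = 2.56e-05), ATF4 less so (-0.37, SE 0.18, adjusted p = 0.0933) and PPP1R15A likewise (-0.41, SE 0.22, adjusted p = 0.127). SESN2 was enriched (1.00, SE 0.2, adjusted p = 9.55e-05), as was PHGDH (0.72, SE 0.184, adjusted p = 0.00157), whereas TRIB3, CHAC1, PSAT1 and ASNS were not called. Of all tested genes 58.3% were called in this comparison, so 5 of 9 was close to the background. Only 14.4% of tested genes had a lower mean ratio than DDIT3, and 90.5% had a lower one than SESN2. DDIT3 and SESN2, both with upstream ATG codons, thus lay at opposite sides of the range. The count was 3 of 9 without replicate 1, 2 or 4. Without the block 1 of 9 was called, and PPP1R15A was then at 0.06.

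The wider pathway was taken from 9 lists of 81 other genes, 73 of them tested. The lists were chosen with earlier results of these data known, so the shares of all tested genes give scale and no independent support. With CID661578, 5 were called higher in total RNA, against 0.315% of all tested genes, and 0 lower, against 0.133%: ATF3 (1.93, SE 0.336, adjusted p = 0.0135), a stress-induced partner of ATF4, and DDIT4, GDF15, STC2 and NUPR1 of the other ATF4 targets. DDIT4, an mTORC1 inhibitor, rose by 3.11 (SE 0.46, adjusted p = 0.00334), GDF15, a stress cytokine, by 2.11 (SE 0.373, adjusted p = 0.0135), STC2, a secreted glycoprotein, by 1.25 (SE 0.295, adjusted p = 0.128) and NUPR1, a chromatin regulator, by 0.98 (SE 0.219, adjusted p = 0.0805). ATF3 was highest in replicate 3 under each treatment, at 6.64, 7.22, 70.4 and 4.15 CPM in DMSO total RNA and 23.9, 27.3, 140 and 31.7 CPM with CID661578. Without the block 0 of 73 were called in total RNA. With it, 9 were called by DESeq2, 3 without replicate 2, 8 without replicate 3 and 1 without replicate 4.

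In polysome RNA with CID661578, 23 of the 73 were called higher, against 6.16% of all tested genes, and 1 lower, with a median log2 change of 0.32. They included 6 of 8 tested other ATF4 targets and 3 of 6 partners (ATF3, CEBPG at 1.18 and JUN at 0.81). Among the amino acid transporters 3 of 8 were called: SLC7A11, the cystine carrier (1.70, adjusted p = 0.00149), SLC1A4 (1.09) and SLC38A2 (0.72). Of 3 other mRNAs known for regulatory uORFs, IBTK (0.97, adjusted p = 0.00513) and IFRD1 (0.83, adjusted p = 0.0208) rose. SLC35A4 was not called, at 58.0 ± 20.1 CPM with CID661578 and 68.0 ± 12.8 CPM in DMSO (SD, n = 4). IBTK (0.86) and IFRD1 (0.49) were called higher in polysome RNA with cercosporamide too. Also called were 1 of 12 aminoacyl-tRNA synthetases (NARS1, 0.53) and 2 of 10 enzymes of serine, one-carbon, proline and sulfur metabolism (CTH, 0.96, and PSPH, 0.76). None of the 4 eIF2 kinases was called by edgeR, and EIF2AK4, the kinase that senses amino acid lack, alone had an unadjusted p under 0.05 (-0.61, adjusted p = 0.197). Of 10 genes of the ATF6 and XBP1 branches of the unfolded protein response, 4 were called higher, among them HSPA5 (0.73), DNAJB9 (0.69) and HSP90B1 (0.52), and CRELD2 was called lower (-0.52), whereas 0 of 10 were called in total RNA by edgeR (1 at an unadjusted p under 0.05). Without the block the polysome count was 0 of 73, and with neither the block nor replicate 3 it was 9 higher. With the block it was 14 higher without replicate 1 and 15 without replicate 4.

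Under cercosporamide the same lists gave 0 calls in total RNA by edgeR. There, 7 had an unadjusted p under 0.05, 1 was called lower by DESeq2, and 4 were called lower after the GC trend correction. In polysome RNA, 21 were called higher and 4 lower, together close to the background of 32.2% called in either direction. In TE, 21 were called higher and 3 lower, led by HSP90B1 (1.91, adjusted p = 5.16e-05), HSPA5 (1.65, adjusted p = 0.000213) and NARS1 (1.5, adjusted p = 0.000597), chaperones of the endoplasmic reticulum and a tRNA synthetase. ATF3 was called lower in polysome RNA (-0.73, adjusted p = 0.132). With 28.4% of all tested genes called in TE in either direction, 24 of 73 was close to the background. That pooled share does not address the surplus of higher over lower calls. The median TE change of the list genes was 0.19, against -0.00 over all tested genes. Without replicate 2 the TE counts were 13 higher and 0 lower, and without the block the polysome counts were 8 higher and 0 lower.

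Over the 12 total RNA libraries, the profile of the 9 tested genes (the mean of their standardized log2 CPM) was lowest in DMSO replicate 4 (-1.04) and highest in CID661578 replicate 3 (1.41), with DMSO replicate 3 at 1.18. The 5 other tested genes most like it were ATF3 (Pearson's r 0.953), ADM (0.941), ATF4P3 (0.939), TSC22D3 (0.934) and GDF15 (0.933). These values describe 12 libraries that share replicates and treatments, with the high values of replicate 3 among them, and ATF4P3 can share reads with ATF4. Within the set, r with ATF4 over those libraries ran from 0.510 (VLDLR) to 0.909 (ASNS), and over the 12 polysome libraries from 0.648 (VLDLR) to 0.964 (TRIB3).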

How the data were processed

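The authors deposited 1 table of raw read counts per gene for 24 libraries, which is the unit used here. Libraries were made with Smart-seq2, which does not mark strand. Per the study's methods, rRNA and adapter reads were removed with BBDuk, reads were aligned to hg38 with HISAT2 and counted with featureCounts on RefSeq genes. The submitters' processing notes also name bcl2fastq 2.20.0.422, CASAVA, FastQC 0.11.8 and MultiQC. The growth medium differs between labels and methods and was not used.

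From the counts, genes with a 0 in any library were removed (54583 to 12058 genes). Library sizes were scaled by TMM. edgeR 4.0.16 in R 4.3.3 fitted quasi-likelihood models: total and polysome RNA separately with treatment and replicate, polysome against total RNA in the 8 DMSO libraries by plate, and TE over all 24 with plate terms, replicate-by-fraction terms and treatment-by-fraction terms (residual degrees of freedom 6, prior 18.25). P-values were adjusted by Benjamini-Hochberg over all tested genes, two-sided. A call needs an adjusted p under 0.15 and a change over 1.2-fold. The adjusted p is the study's; the fold is the study's for translational efficiency and was extended here to total and polysome RNA, for which the study set no minimum change. Log2 CPM used a prior count of 0.5, and per-replicate changes are differences of it.

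Replicate numbers were kept as a block because the study's methods treat replicate as batch; same-numbered samples deviated together in 13 of 16 comparisons (r over 0.1, range -0.019 to 0.584). Alternatives were DESeq2 1.42.0, other scalings and filters, no block, a GC trend correction, 1 compound at a time, a stricter adjusted p of 0.05, and leaving out each replicate, with the genes kept by the filter on the full table. The scripts were tested on simulated data. The genes and lists were chosen with earlier results of these data known. Named list genes are at most 3 per list and comparison with the smallest p among those called, or 1 with the smallest p where none of a list was called; STC2 in total RNA, CRELD2 and SLC35A4 were named beyond it, after their values were seen, to complete small counts. Members are named in full, with VLDLR by its counts. Positions and transcripts are from GENCODE v44 (GRCh38) and promoters from RefSeq. Intervals and limits cover counting or replicate error only.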

Additional observations from a re-analysis of the deposited data

Results flagged for a closer look

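In 60 groups of 4 libraries (10 genes, 3 treatments, 2 fractions), the highest or lowest library stood apart from the others in 23, by the 95% critical value of Dixon's ratio of gap to range. Chance flags about 1 in 20 groups, and the groups are not independent, since each replicate supplies all genes. In all 23 it was replicate 3 that was highest, in 15 groups of DMSO, 8 of cercosporamide and 0 of CID661578. In DMSO total RNA, replicate 3 stood at 352 CPM for DDIT3 (others 47.5 to 68.6), 3.99 for ASNS, 228 for TRIB3, 86.5 for PPP1R15A, 117 for SESN2 (others 5.50 to 7.12), 119 for CHAC1 and 274 for PSAT1. In DMSO polysome RNA it stood at 458 CPM for ATF4 (others 44.5 to 87.3), 203 for DDIT3, 198 for TRIB3, 130 for PPP1R15A, 185 for SESN2, 132 for CHAC1, 358 for PSAT1 and 340 for PHGDH. In cercosporamide total RNA it stood at 414 CPM for ATF4 (others 77.4 to 114), 360 for DDIT3 and 217 for PSAT1. In cercosporamide polysome RNA it stood at 337 CPM for ATF4, 158 for TRIB3, 143 for SESN2, 86.5 for CHAC1 and 238 for PSAT1. What set replicate 3 apart was not tested.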

How the results depend on the processing

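Of 1305 values of single genes under 17 alternatives, 1166 kept their direction or stayed uncalled, 42 became called, 95 lost the call and 2 reversed; 79 of the values called in neither fit changed sign. The reversed values were TE of TRIB3 with cercosporamide, 0.03 with no replicate block and no plate terms, and polysome minus total RNA of PPP1R15A in DMSO, 0.06 with no replicate block. Without the replicate block the number of genes called was 0 for CID661578 against DMSO and against cercosporamide in total and in polysome RNA, 1 for TE with cercosporamide, and 1 for polysome against total RNA. With neither block nor plate terms both TE counts of cercosporamide and of the difference between compounds were 0. Leaving out 1 replicate, counts ranged from 1 to 6 (total RNA with CID661578), 2 to 6 (total RNA, CID661578 against cercosporamide), 0 to 3 (TE with cercosporamide), 0 to 2 (TE between compounds, and polysome RNA with cercosporamide) and 3 to 5 (polysome against total RNA). The GC trend correction gave 0 for TE with cercosporamide, 2 for TE between compounds and 8 for total RNA between compounds. With DMSO and cercosporamide alone, the count was 1 for TE and 1 for polysome RNA; without cercosporamide replicate 4 it was 1 for TE and 3 for total RNA between compounds. In polysome RNA with cercosporamide, DESeq2 size factors gave 1, no filter 2 and filterByExpr 1. In polysome against total RNA, DESeq2, no filter, filterByExpr and an adjusted p of 0.05 each gave 3, DESeq2 size factors gave 4, TMM within each fraction 6 and the GC trend correction 7, and that threshold left 0 for TE with cercosporamide. With neither the block nor replicate 3, added after the data were seen, TE between compounds gave 2. The causes were not tested, except that a stricter threshold can only lower a count. Depth limits ASNS and VLDLR, and the cercosporamide polysome replicate 4 library most.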
